A study of Mus musculus with 21 samples.

Results

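Carbon tetrachloride (CCl4) was set against olive oil in wild-type mouse liver, and the comparison was described across protein-coding genes. Its members were the protein-coding genes that averaged 1 FPKM or more over the 3 CCl4 and 3 oil libraries. FPKM, sequenced fragments per kilobase of gene, scaled to the size of the library, was the deposited unit. The 3 members nearest above the minimum were Btc, Ccne1 and Ccdc77, at means of 1.0005, 1.0005 and 1.0008 FPKM, and the 3 genes nearest below it Naaladl2, 9430038I01Rik and Cytip, at 0.9997, 0.9992 and 0.9990 FPKM. The rule gave 10419 of 22046 protein-coding genes, and 11627 lay below the minimum, 5288 of them at 0 in all 6 libraries. The CCl4 group was wild-type liver after intraperitoneal CCl4, and the oil group was wild-type liver after intraperitoneal oil, in 3 libraries each. Sample labels give 6 weeks for both groups, whereas the series' design text gives 8 weeks for CCl4. Dose, strain, age and sex are not given in the sources used here, and nothing says that the 3 libraries of a group came from separate mice, so each p-value measures only the spread between libraries. The series holds 21 RNA-seq libraries in 7 groups, and its title concerns the DNA sensor adaptor STING and the NLRP3 inflammasome in hepatocytes of fibrotic liver. CCl4-treated livers labelled Sting knockout, in 3 libraries, shared the model fit but not the comparison, so their spread too enters each p-value of that fit.

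CCl4 is converted to a reactive radical by cytochrome P450 enzymes, chiefly CYP2E1, in the hepatocytes around the central vein, and these cells die first. Repeated injury recruits macrophages and neutrophils, turns stellate cells and portal fibroblasts into matrix-secreting myofibroblasts, and drives surviving hepatocytes to divide. Hepatocytes make most plasma proteins and hold the enzymes of ammonia, amino acid, drug and lipid metabolism, many of them zoned between the portal and central veins or set by sex through growth hormone pulses. In RNA of whole liver, fewer cells of a type and less RNA per cell cannot be told apart.

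Whole reads recovered from the deposited values numbered 14353483 to 16684832 per library of the CCl4 table. CCl4 replicate 3 stood apart from the other libraries. It held Xist, the RNA that coats the inactive X chromosome of female cells, at 79.9 FPKM (26666 reads), against 0 to 0.0128 FPKM in the other 5 libraries. The Y-linked genes Eif2s3y, Uty and Kdm5d were at 0 in it and Ddx3y at 0.0414 FPKM (4 reads), whereas Ddx3y lay between 11.5 and 25.2 FPKM in the other 5. The RNA of CCl4 replicate 3 thus had a female pattern and that of the other 5 libraries a male one, within groups whose labels give no sex. Across the 10419 members Spearman's rho was 0.933 between CCl4 replicates 1 and 2, and 0.862 and 0.872 between each of these and replicate 3, against 0.961 to 0.982 among oil libraries. These coefficients run across genes, which are not replicates. Of members, 61 in CCl4 replicate 3 lay at least 4-fold above or below both other CCl4 libraries on the FPKM + 1 scale, against 36 in replicate 1 and 26 in replicate 2. The part that sex played in the differences below was not tested, and counts are given with that library left out.

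Markers of cell types were summed in each library. The 8 markers of myofibroblasts and portal fibroblasts came to 57.6, 232 and 119 FPKM in the CCl4 livers, against 5.56, 3.94 and 4.26 FPKM in the oil livers, and all 6 that were members rose. Of these Eln, Thy1 and Timp1 lost the call without oil replicate 1 (adjusted p = 0.0598, 0.0803 and 0.0559), oil replicate 2 (0.0721, 0.149 and 0.0565) or oil replicate 3 (0.0789, 0.119 and 0.0846). Eln also lost it without CCl4 replicate 1 or 2, Thy1 without CCl4 replicate 1 or 3 and Timp1 without CCl4 replicate 3, whereas Col1a1, Acta2 and Cd34 kept it without each of the 6 libraries. Cd34, Eln, Thy1 and Timp1 averaged 0.387, 0.646, 0.527 and 0.487 FPKM under oil, so they had to lie higher under CCl4 to be members. The 6 of recruited macrophages came to 108, 346 and 317 FPKM under CCl4 and 33.8, 32.7 and 40.7 FPKM under oil, and all 5 members rose. Most of that sum was Spp1, osteopontin, at 49.8, 276 and 241 FPKM under CCl4 and 25.3, 22.5 and 30.4 FPKM under oil, which lost its call without CCl4 replicate 2 or 3 (adjusted p = 0.0535 and 0.0585) or oil replicate 1 or 2 (0.0560 and 0.0646). Cd9 lost it without oil replicate 1 (0.0571). Ccr2, Gpnmb and Trem2 averaged 0.410, 0.0516 and 0.258 FPKM under oil, so they too had to lie higher under CCl4 to be members. The myofibroblast and recruited macrophage sums were lowest among CCl4 livers in replicate 1, and neither group overlapped the other. Under CCl4 most of the myofibroblast sum was Col1a1 and Acta2. The 6 markers of quiescent stellate cells summed to 101, 71.3 and 77.4 FPKM under CCl4 and 104, 108 and 93.8 FPKM under oil. Limma and edgeR called 0 of these 6 and DESeq2 1 higher, with 2 higher and 1 lower at an unadjusted limma p under 0.05. The 5 neutrophil markers summed to 54.9, 57.9 and 129 FPKM under CCl4 and 4.32, 15.6 and 11.4 FPKM under oil, with all 3 members higher. Kupffer cell markers, 5 in all, summed to 1081, 258 and 432 FPKM under CCl4 and 149, 243 and 186 FPKM under oil. Here CCl4 replicate 1 was high and replicate 2 lay near the oil livers, and the 2 of 5 called were Marco, described below, and Cd5l, a secreted macrophage protein (adjusted p = 0.0488, and 0.0739 to 0.155 on leaving out any 1 library other than CCl4 replicate 2). In replicate 1 most of the sum was Cd5l and Marco (570 and 267 FPKM). Limma did not call Clec4f (0.01, adjusted p = 0.996), Timd4 (0.61, adjusted p = 0.500) or Vsig4 (1.16, adjusted p = 0.104). Vsig4 was called higher by edgeR and DESeq2 (adjusted p = 0.0368 and 0.00621).

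The 6 bile duct markers summed to 12.96, 17.5 and 40.2 FPKM under CCl4 and 13.9, 13.7 and 12.4 FPKM under oil, highest in replicate 3. In that library Krt19, a duct keratin, was at 23.8 FPKM, against 1.51 and 2.71 FPKM in the other CCl4 livers and 1.21 to 1.61 FPKM in the oil livers. The 5 B and plasma cell markers summed to 11.3, 13.4 and 37.02 FPKM under CCl4 and 2.55, 4.38 and 3.79 FPKM under oil, with no overlap. Jchain, the joining chain of secreted antibody, was at 2.93, 6.89 and 31.05 FPKM under CCl4 and 0.914, 1.18 and 1.26 FPKM under oil. Limma did not call it (adjusted p = 0.0761), while edgeR and DESeq2 called it higher (0.0240 and 0.00395). Cd79b, of the B cell receptor, was called higher (0.98, adjusted p = 0.0242), but not without CCl4 replicate 1 (0.0757) or oil replicate 1 or 3 (0.105 and 0.0787). T and NK cell markers, 6 in all, summed to 14.8, 2.43 and 4.14 FPKM under CCl4 and 2.01, 1.71 and 1.88 FPKM under oil, highest in replicate 1. The 6 markers of sinusoidal endothelium stayed between 67.9 and 74.8 FPKM in all 6 livers. Of them Lyve1, a hyaluronan receptor, was called higher, a call that ended without CCl4 replicate 3 (adjusted p = 0.0576) or without oil replicate 1, 2 or 3 (0.0585, 0.0715 and 0.0712). The 7 hepatocyte markers summed to 39256, 35845 and 53285 FPKM under CCl4 and 48176, 55515 and 64179 FPKM under oil, the largest of the marker sums in each library. Limma called 0 of these 7, with 2 lower at an unadjusted p under 0.05, 0 called by edgeR and 1 lower by DESeq2. Markers of skeletal muscle summed to at most 3.23 FPKM, and Adipoq and Lep of fat and Amy2a4 of pancreas were at 0 in every library. Fabp4 of fat was called higher (1.20, adjusted p = 0.0195). That call held without CCl4 replicate 1 and was lost on leaving out any other of the 6 libraries (adjusted p = 0.0501 to 0.0777). The 5 pancreas markers still summed to 4.72, 7.6 and 7.42 FPKM under CCl4 and 13.8, 17.9 and 13.3 FPKM under oil, nearly all of it Cela1, an elastase that limma did not call (adjusted p = 0.0537) and DESeq2 called lower (adjusted p = 0.0347). The part of these cell type shifts in the gene differences was not tested.

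**Figure D1:**
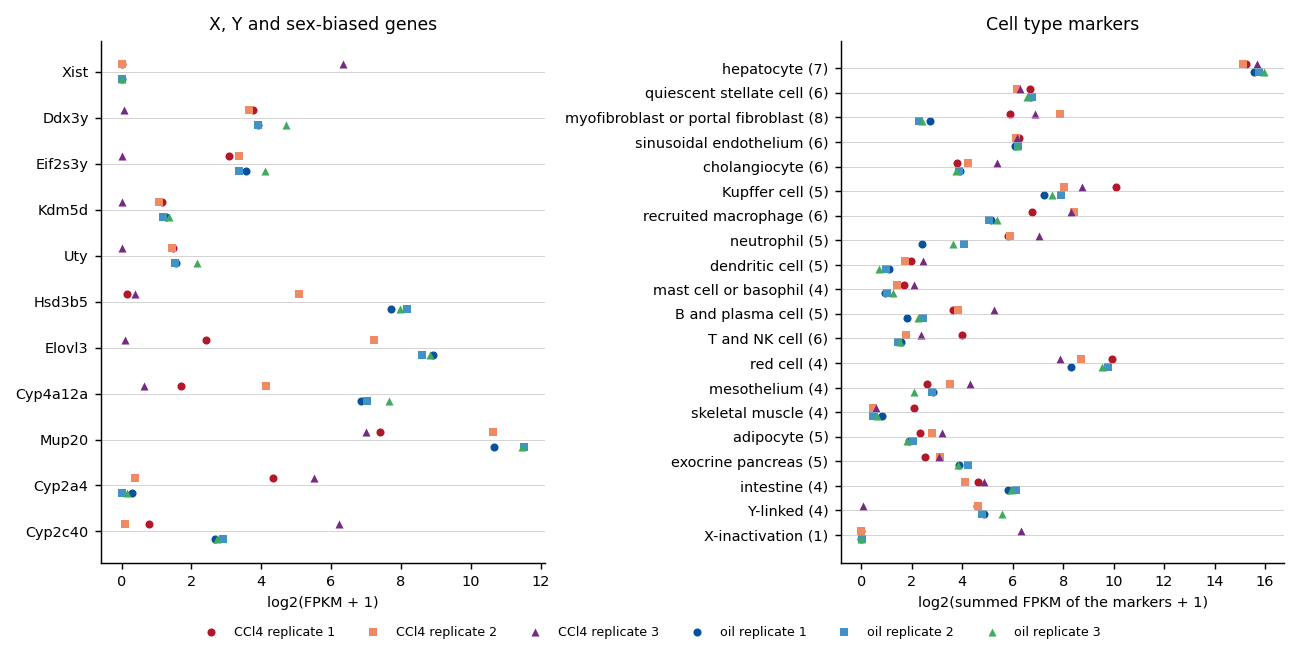
Left, log2(FPKM + 1) of X-linked, Y-linked and sex-biased liver genes; right, log2 of the summed FPKM of the cell type markers plus 1, with the number of markers in brackets. Each point is 1 library, CCl4 above oil in each row; CCl4 replicate 3 (purple triangle) has Xist at 79.9 FPKM and lacks the Y-linked genes.

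Of the 10419 members, 970 (9.31%) were higher and 647 (6.21%) lower under CCl4 at a limma adjusted p under 0.05, adjusted over all 11447 genes fitted. Among all genes fitted, of every biotype, the counts were 1011 (8.83%) and 731 (6.39%). Differences are given as log2 of FPKM + 1, CCl4 minus oil, with the standard error, a scale that understates the change of low genes. The median difference of members was -0.08, the median standard error 0.26, and 165 members rose and 72 fell by at least 2 on this scale. Of members with a mean of at least 1 FPKM in each group, 9490 in all, 517 (5.45%) were higher and 588 (6.2%) lower. A further 770 members reached the minimum in the CCl4 group alone, of which 453 were called higher, and these had to lie higher there to be counted at all. All 3 CCl4 libraries lay above all 3 oil libraries at 1738 members (16.7%) and below them at 2302 (22.1%). Without CCl4 replicate 1, 2 or 3 the calls were 776, 872 and 909 higher and 520, 381 and 410 lower, and of those without replicate 3, 804 and 370 were among the calls with all libraries. Without oil replicate 1, 2 or 3 they were 623, 628 and 620 higher and 272, 243 and 259 lower. Without replicate 2 of the livers labelled Sting knockout, whose implied library size of 0.823 times its reads lay in the oil range, they were 1158 higher and 1085 lower. With only the 6 CCl4 and oil libraries in the fit they were 1007 higher and 866 lower.

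The sum to which each library was scaled mattered. The deposited values were such that the implied library size was 1.09 to 1.17 times the recovered reads in the CCl4 libraries and 0.744 to 0.912 times in the oil libraries. With every library brought to an equal sum of FPKM, the median difference of members moved to 0.41 and the calls became 1668 higher and 166 lower, that is 90.9% higher, against 60.0% with the deposited scaling. All 970 and 166 of the 647 calls were among these. Changes below are to be read against these medians.

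The direction of calls differed along the range of levels. Of members at 1 to 2 FPKM, 16.2% were higher and 2.36% lower, whereas at 100 to 1000 FPKM 2.91% were higher and 24.0% lower. Above 1000 FPKM 13 of 52 were lower. These shares include members that reached the minimum in 1 group alone and so had to lie higher in that group. Of them 770 did so in the CCl4 group, with 453 called higher and 0 lower. Another 159 did so in the oil group, with 0 called higher and 59 lower. Shares by level were not taken without these members. Transcripts of over 8 kb had 5.44% higher and 3.85% lower calls, and those of 1 to 2 kb 11.6% and 7.31%. Of the 293 X-linked members 13.7% were higher, and 11.3% without CCl4 replicate 3, when the share over all members was 8.72%. The 100 most abundant members of each library held 49.1%, 50.9% and 54.1% of summed FPKM under CCl4 and 55.0%, 58.1% and 62.2% under oil (p = 0.1 by exact two-sided permutation, the lowest p that 3 against 3 libraries allow).

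**Figure D2:**
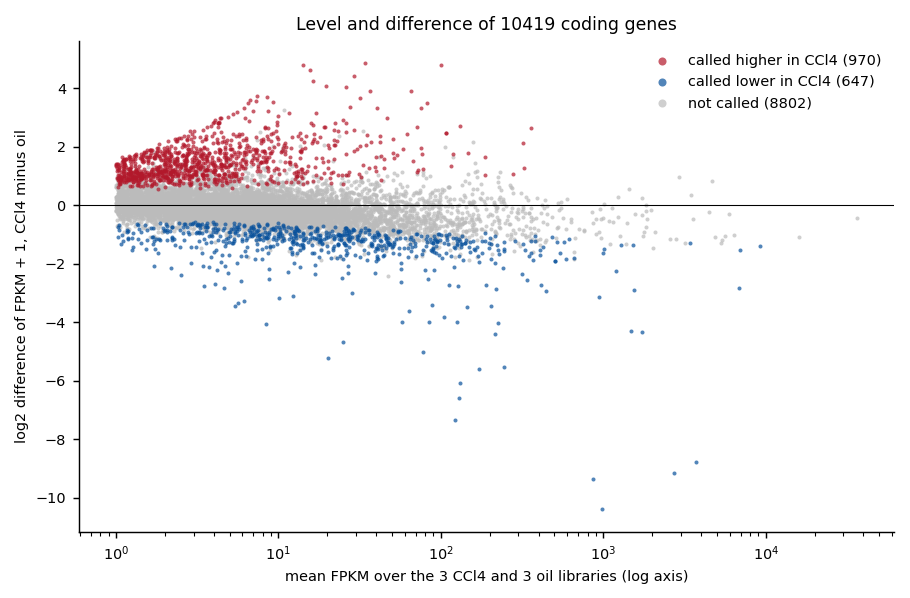
Log2 difference of FPKM + 1, CCl4 minus oil (vertical), against the mean FPKM over the 6 libraries (horizontal, log axis), 1 point per member. Of 10419 members 970 were called higher (red) and 647 lower (blue), and the blue points reach further into the high levels.

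Several of the 15 largest rises among genes present in both groups are given here, and all 15 are plotted. Col1a2, the second chain of type I collagen (ENSMUSG00000029661, chromosome 6, 4504814 to 4541544, mm10), was at 20.8, 56.3 and 37.6 FPKM in the CCl4 livers, against 1.39, 1.18 and 0.934 FPKM in the oil livers. All CCl4 livers lay far above the oil livers, replicate 2 highest (log2 difference 4.08 ± 0.36, adjusted p = 0.000132). Marco, a scavenger receptor of macrophages, was at 267, 47.4 and 61.1 FPKM under CCl4 and 7.65, 8.82 and 1.75 FPKM under oil. Replicate 1 exceeded the other CCl4 livers, and the groups did not overlap (3.92 ± 0.71, adjusted p = 0.00446). Mt1, a metallothionein that binds zinc and copper, was at 241, 68.7 and 136 FPKM under CCl4 and 2.53, 14.9 and 26.98 FPKM under oil (3.51 ± 0.71, adjusted p = 0.00795). Its oil values spread over a wide range, yet the highest stayed below the lowest CCl4 value.

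Ccl6, a chemokine of myeloid cells, was at 112, 48.6 and 63.2 FPKM under CCl4 and 4.58, 7.197 and 6.68 FPKM under oil (3.34 ± 0.33, adjusted p = 0.000177). Stmn1, which destabilises microtubules and is abundant in dividing cells, was at 34.2, 25.4 and 33.97 FPKM under CCl4 and 2.22, 4.18 and 1.803 FPKM under oil (3.15 ± 0.34, adjusted p = 0.000301). For both, every CCl4 liver lay several-fold above the highest oil liver. Ifi27l2b, an interferon-inducible gene, was at 58.4, 44.8 and 48.4 FPKM under CCl4 and 4.03, 7.06 and 2.06 FPKM under oil (3.36 ± 0.34, adjusted p = 0.000237). Cd63, a tetraspanin of late endosomes, was at 11.7, 26.2 and 18.2 FPKM under CCl4 and 1.43, 1.43 and 0.916 FPKM under oil (3.06 ± 0.43, adjusted p = 0.00118). Saa2, an acute phase serum amyloid, was at 211, 152 and 45.2 FPKM under CCl4 and 1.93, 19.8 and 23.9 FPKM under oil. It is a near copy of Saa1, so its share of reads is uncertain. Its call (adjusted p = 0.0209) was lost on leaving out CCl4 replicate 1, CCl4 replicate 2 or oil replicate 1 (adjusted p = 0.0677, 0.0587 and 0.0571) and with no filter on level (adjusted p = 0.0715).

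Of the 15 largest falls, all plotted, 5 were of P450 genes and 6 of major urinary protein genes. Another was Oat, ornithine aminotransferase of pericentral hepatocytes, at 28.7, 18.4 and 28.9 FPKM under CCl4 and 381, 354 and 546 FPKM under oil (-4.02 ± 0.30, adjusted p = 4.51e-05). Hsd3b5, a steroid reductase of male liver (ENSMUSG00000038092, chromosome 3, 98618634 to 98630252, mm10), was at 0.107, 32.9 and 0.312 FPKM under CCl4 and 208, 289 and 252 FPKM under oil. It was nearly lost in CCl4 replicates 1 and 3 and kept in part in replicate 2 (-6.08 ± 1.05, adjusted p = 0.00349, and 0.0661 by edgeR on recovered reads). Cyp2a5, a P450 of coumarin oxidation, was at 32.9, 5.99 and 2.91 FPKM under CCl4 and 168, 159 and 140.1 FPKM under oil (-4.00 ± 0.85, adjusted p = 0.0102). Cyp2c37, an arachidonate-oxidising P450, was at 19.1, 2.84 and 36.7 FPKM under CCl4 and 191, 192 and 318 FPKM under oil (-3.99 ± 0.81, adjusted p = 0.00795). For these P450 genes the order of CCl4 livers differed, Cyp2a5 being highest in replicate 1 and Cyp2c37 in replicate 3. Both have close relatives in clusters of Cyp2 genes, so reads may be split among copies.

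**Figure D3:**
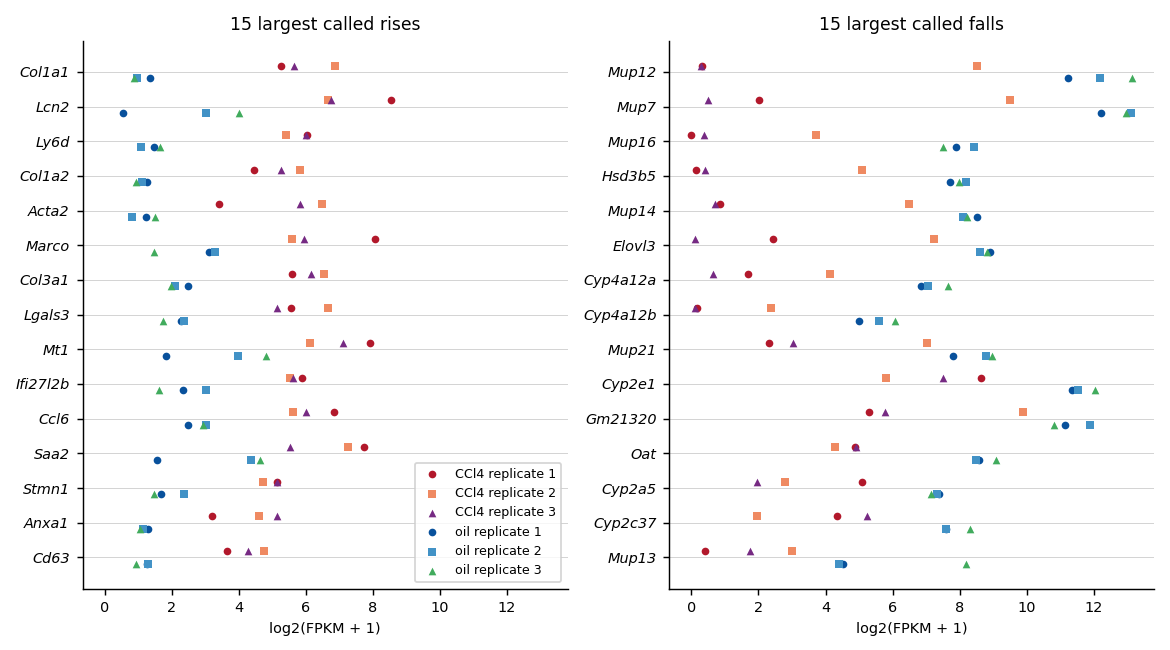
Log2(FPKM + 1) in each library for the 15 largest called rises (left) and the 15 largest called falls (right) among members averaging 1 FPKM or more in each group with no overlap of groups. CCl4 points stand above oil points in each row; CCl4 replicate 2 (orange square) lies nearer to the oil livers in most of the falls, as for Hsd3b5 at 32.9 FPKM.

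Of 13 genes known for higher expression in male mouse liver, 12 fell, and the median of the list was -3.28. Of 7 female-biased members 2 rose, with a list median of 1.58. That count was 2, 4 and 2 without CCl4 replicate 1, 2 or 3 and 2, 2 and 2 without oil replicate 1, 2 or 3. The female-biased list median against the oil mean was 1.34, 0.02 and 2.72 in CCl4 replicates 1, 2 and 3. The male-biased count was 9, 13 and 10 without CCl4 replicate 1, 2 or 3 and 7, 7 and 7 without oil replicate 1, 2 or 3, and 9 with equal sums, so 10 of 13 fell when every CCl4 and oil library compared held Y-linked RNA. Susd4, a complement regulator and the male-biased gene with the smallest p, was at 0.1997, 0.788 and 0.0697 FPKM under CCl4 and 9.91, 12.3 and 13.4 FPKM under oil. Every CCl4 liver was below 1 FPKM (-3.28 ± 0.23, adjusted p = 4.21e-05). Slco1a1, an organic anion uptake carrier, was at 8.58, 29.3 and 10.1 FPKM under CCl4 and 112, 153 and 219 FPKM under oil (-3.41 ± 0.47, adjusted p = 0.00109). Cyp4a12a, a fatty acid hydroxylase with a near copy beside it, was at 2.23, 16.6 and 0.577 FPKM under CCl4 and 115, 131 and 201 FPKM under oil (-5.03 ± 0.68, adjusted p = 0.00106). In each of these 3 genes CCl4 replicate 2 kept the most.

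Elovl3, a fatty acid elongase, had the widest spread of all members at 5 FPKM or more within the CCl4 group, at 4.38, 150.2 and 0.072 FPKM, a ratio of 2086 between its highest and lowest liver. In the oil livers it was at 481, 389 and 452 FPKM. Its limma call (-5.52 ± 1.32, adjusted p = 0.0182) was lost on leaving out CCl4 replicate 1 or any oil library (adjusted p = 0.0563, then 0.0581, 0.0545 and 0.0625), with no filter (adjusted p = 0.0689) and with edgeR or DESeq2 on recovered reads (adjusted p = 0.2 and 0.207). Among female-biased genes Cyp17a1, a steroid hydroxylase and lyase, was at 14.3, 4.57 and 11.4 FPKM under CCl4 and 1.304, 1.16 and 1.6 FPKM under oil (2.12 ± 0.37, adjusted p = 0.00407). Abcd2, a peroxisomal fatty acid transporter, was at 8.51, 6.51 and 17.2 FPKM under CCl4 and 2.42, 1.23 and 1.78 FPKM under oil (1.98 ± 0.32, adjusted p = 0.00246). Both were above the oil livers in every CCl4 liver, with or without Y-linked RNA. Cyp2c40 and Cyp2a4, P450 genes with sex-dependent expression, were not called (adjusted p = 0.877 and 0.106). Cyp2c40 was at 0.729, 0.0772 and 73.6 FPKM under CCl4 and 5.39, 6.57 and 5.65 FPKM under oil, high in replicate 3 and below oil in the other CCl4 livers, and it was called lower without replicate 3 (adjusted p = 0.00408). Cyp2a4 was at 19.3, 0.302 and 44.8 FPKM under CCl4 and 0.227, 0 and 0.108 FPKM under oil, raised in replicates 1 and 3, and it was called higher without CCl4 replicate 2 (adjusted p = 0.00894) and by edgeR and DESeq2 (adjusted p = 0.0177 and 0.000208).

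The major urinary protein genes, 19 members whose products male mice shed in urine, held 0.188%, 2.08% and 0.797% of summed member FPKM under CCl4. In the oil livers they held 4.34%, 6.50% and 7.96%. No CCl4 liver reached the lowest oil liver (p = 0.1 by exact two-sided permutation, the lowest p this design allows). The copies are nearly identical, so values of single Mup genes are uncertain.

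**Figure D4:**
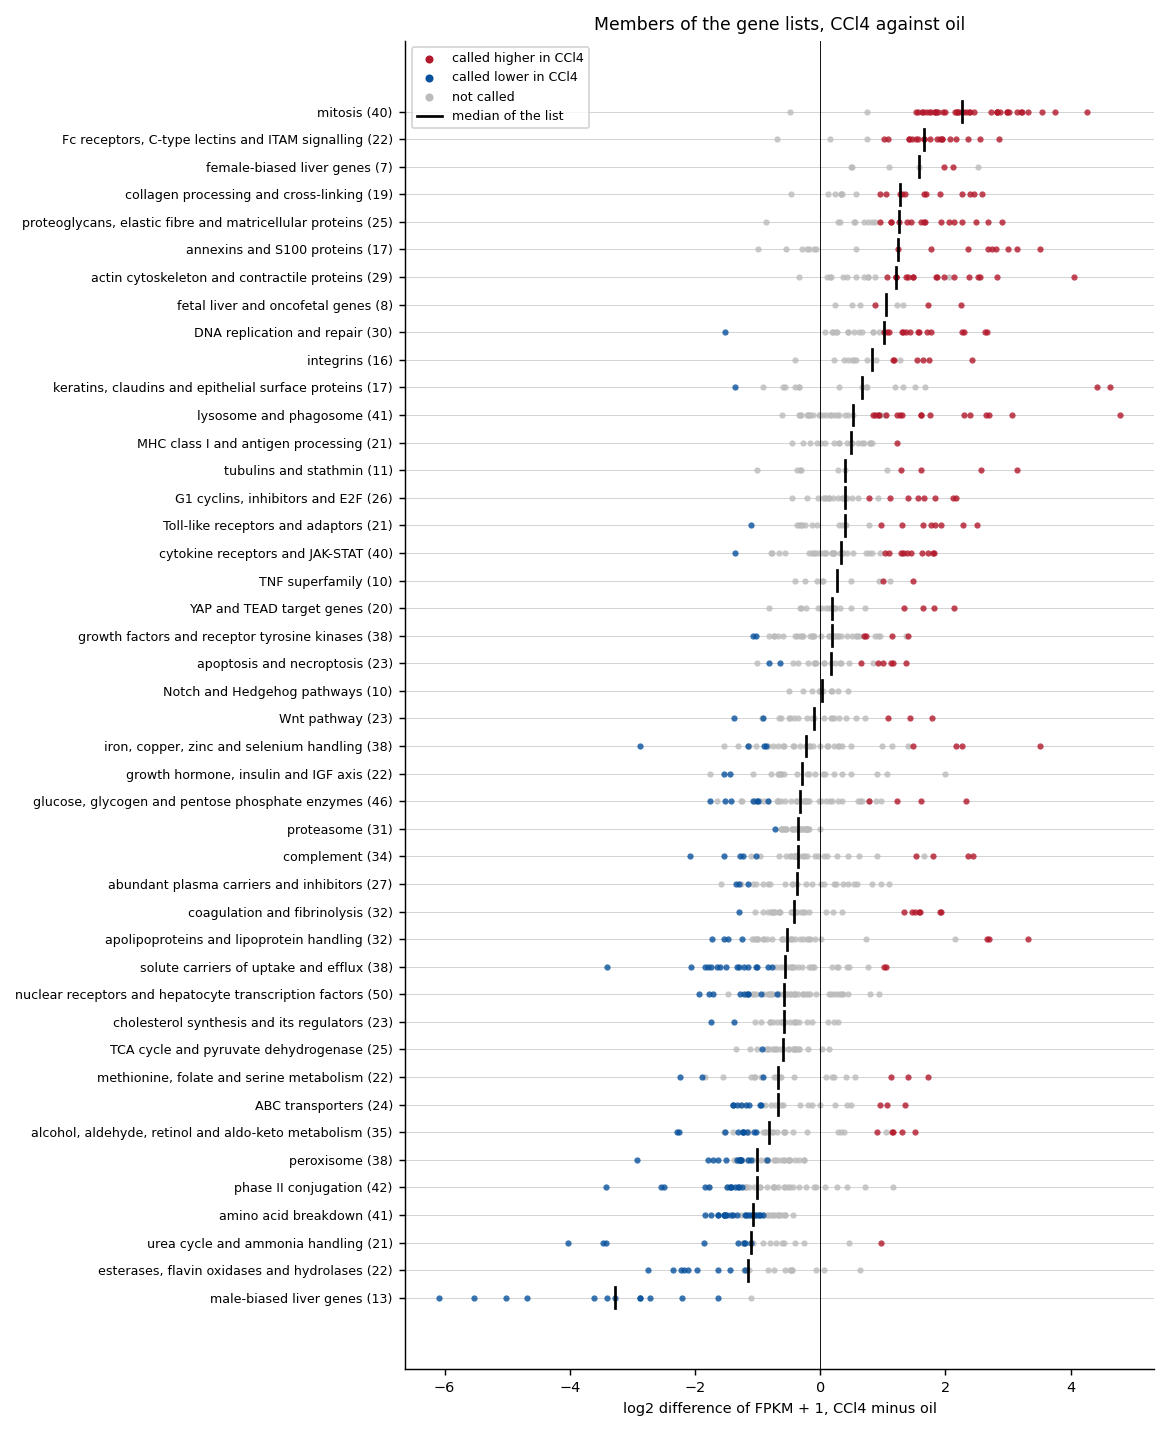
Log2 difference of FPKM + 1, CCl4 minus oil, for each member (point) of the 44 gene lists, with the number of members in brackets, ordered by the median (black bar). Mitosis has the highest median (2.27), although 3 of its 40 members averaged 1 FPKM or more in both groups and most others had to lie higher to be members, and male-biased liver genes have the lowest (-3.28); red and blue points were called higher and lower.

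Enzymes that process and cross-link collagen rose in 12 of 19 members (list median 1.27), and 6 of the 13 present in both groups did. The count was 9 to 11 with any 1 of the 6 libraries left out. Sparc, a collagen-binding glycoprotein, was at 74.8, 143 and 100.3 FPKM in the CCl4 livers and 17.8, 18.8 and 17.2 FPKM in the oil livers (2.45 ± 0.29, adjusted p = 0.000548). Loxl2, which cross-links collagen and elastin, was at 3.604, 9.05 and 7.005 FPKM under CCl4 and 0.523, 0.396 and 0.572 FPKM under oil (2.26 ± 0.32, adjusted p = 0.00126), and Lox, of the same family, at 2.23, 6.897 and 6.36 FPKM under CCl4 and 0.08196, 0.0477 and 0.156 FPKM under oil (2.39 ± 0.36, adjusted p = 0.00183). Adamts2, which trims procollagen, was at 4.75, 5.38 and 3.82 FPKM under CCl4 and 0.823, 0.745 and 0.742 FPKM under oil (1.67 ± 0.22, adjusted p = 0.000876). For Sparc, Loxl2 and Lox replicate 2 was the highest CCl4 liver, as it was for the myofibroblast marker sum, whose part in these values was not tested.

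Proteoglycans, elastic fibre and matricellular genes rose in 16 of 25 members (median 1.26), 8 of 16 among those present in both groups. That count was 12 to 14 with any 1 of the 6 libraries left out. Lum, a small proteoglycan that spaces collagen fibrils, was at 31.2, 30.9 and 74.2 FPKM under CCl4 and 3.81, 4.62 and 5.81 FPKM under oil (2.90 ± 0.38, adjusted p = 0.000877), here highest in replicate 3. Cd44, the hyaluronan receptor, was at 12.1, 8.33 and 12.2 FPKM under CCl4 and 1.42, 1.86 and 2.21 FPKM under oil (2.06 ± 0.23, adjusted p = 0.000391). Fbn1, fibrillin of elastic microfibrils, varied little within either group, at 3.11, 3.43 and 3.45 FPKM under CCl4 and 0.406, 0.353 and 0.5096 FPKM under oil (1.60 ± 0.22, adjusted p = 0.00116). Integrin genes rose in 6 of 16 and in 2 of the 10 present in both groups (median over the 16 0.82). The count of 6 was 4 to 7 with any 1 of the 6 libraries left out and 11 with equal sums. Itgb2, the beta chain of leukocyte integrins, was at 42.4, 19.5 and 24.8 FPKM under CCl4 and 3.98, 4.73 and 4.17 FPKM under oil (2.43 ± 0.32, adjusted p = 0.000877). Its partner Itgax was at 3.46, 3.32 and 4.098 FPKM under CCl4 and 0.5198, 0.223 and 0.409 FPKM under oil (1.74 ± 0.19, adjusted p = 0.000362), and Itga8, an integrin of myofibroblasts, at 5.4, 3.699 and 6.59 FPKM under CCl4 and 1.29, 0.996 and 1.004 FPKM under oil (1.55 ± 0.30, adjusted p = 0.00613).

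Many cytoskeletal genes were higher too. Of 29 actin and contractile genes 17 rose (median 1.21), with 17, 14 and 17 without CCl4 replicate 1, 2 or 3 and 13, 12 and 11 without oil replicate 1, 2 or 3. Vim, the intermediate filament of mesenchymal and immune cells, was at 40.2, 47.8 and 51.2 FPKM in the CCl4 livers and 6.16, 5.21 and 5.63 FPKM in the oil livers (2.83 ± 0.26, adjusted p = 0.000155). Flna, which cross-links actin, was at 21.1, 26.02 and 20.8 FPKM under CCl4 and 4.29, 3.47 and 2.96 FPKM under oil (2.37 ± 0.35, adjusted p = 0.00143). Coro1a, an actin regulator of leukocytes, was at 20.8, 22.4 and 10.4 FPKM under CCl4 and 3.23, 4.53 and 3.06 FPKM under oil (1.98 ± 0.29, adjusted p = 0.0014). Vim and Flna were even across the CCl4 livers, whereas Coro1a, which overlaps Bola2 on the other strand, was lower in replicate 3. Tubulin and stathmin genes rose in 4 of 11 (median 0.40), a count of 4 to 5 with any 1 of the 6 libraries left out and 7 with equal sums. Tubb6 was at 45.8, 40.3 and 29.7 FPKM under CCl4 and 5.31, 5.96 and 5.49 FPKM under oil (2.57 ± 0.24, adjusted p = 0.000155). Tubulin genes are close copies of each other, which leaves the share of each uncertain.

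Annexins and S100 proteins, which bind calcium and membranes, rose in 9 of 17 members (median 1.25), a count of 8 to 9 with any 1 of the 6 libraries left out. S100a11 was at 57.2, 98.1 and 94.3 FPKM under CCl4 and 10.9, 9.72 and 7.51 FPKM under oil (2.99 ± 0.36, adjusted p = 0.000548). Anxa2 was at 20.97, 45.2 and 34.9 FPKM under CCl4 and 4.53, 4.55 and 3.51 FPKM under oil (2.68 ± 0.30, adjusted p = 0.000391), and Anxa1, an inhibitor of neutrophil entry, at 8.15, 23.1 and 34.4 FPKM under CCl4 and 1.44, 1.23 and 1.08 FPKM under oil (3.14 ± 0.42, adjusted p = 0.00101). Replicate 1 was the lowest CCl4 liver for all 3. Among 17 keratin, claudin and surface genes 2 rose and 1 fell, beside 9.31% higher and 6.21% lower over all members. The one that fell was Cldn2, a pore-forming claudin of hepatocyte junctions, at 17.03, 8.87 and 17.1 FPKM under CCl4 and 36, 35.8 and 38.8 FPKM under oil (-1.36 ± 0.29, adjusted p = 0.0098, and 0.169 with equal sums). Of 8 fetal liver members 3 rose, a count of 2 to 3 with any 1 of the 6 libraries left out, among them Golm1, a Golgi protein whose gene overlaps Naa35 on the other strand, at 7.81, 7.997 and 10.1 FPKM under CCl4 and 0.847, 1.35 and 0.9102 FPKM under oil (2.24 ± 0.42, adjusted p = 0.00521).

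Receptors through which myeloid cells bind antibody, lipids and sugars rose in 19 of 22 members (median 1.66), and in 12 of the 15 present in both groups. The count was 15 to 19 with any 1 of the 6 libraries left out. Fcer1g, the signalling chain shared by Fc receptors, was at 89.7, 65.1 and 60.2 FPKM under CCl4 and 9.92, 15.2 and 14.04 FPKM under oil (2.37 ± 0.29, adjusted p = 0.000575). Trem2, a lipid receptor of macrophages, was at 9.45, 10.6 and 5.14 FPKM under CCl4 and 0.306, 0.278 and 0.189 FPKM under oil (2.85 ± 0.31, adjusted p = 0.000321). Sirpa, the receptor for CD47, was at 56.3, 32.8 and 32.4 FPKM under CCl4 and 7.17, 6.12 and 4.54 FPKM under oil (2.55 ± 0.29, adjusted p = 0.000465). Fcgr3, an IgG receptor, was at 41.8, 19.7 and 25.5 FPKM under CCl4 and 4.35, 6.56 and 5.34 FPKM under oil (2.17 ± 0.28, adjusted p = 0.000764). Fcer1g, Sirpa and Fcgr3 were highest in replicate 1, the CCl4 liver with the highest Kupffer cell sum. Picked after their values were seen, the 3 not called were Fcgr2b (0.15, adjusted p = 0.764), an inhibitory receptor of sinusoidal endothelium, Fcgrt (-0.69, adjusted p = 0.293), which recycles IgG and albumin, and the kinase Lyn (0.75, adjusted p = 0.0982).

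Toll-like receptors and adaptors rose in 8 of 21 members and fell in 1 (median 0.39), but of the 14 present in both groups 2 rose and 0 fell. The rises were 5, 8 and 7 without CCl4 replicate 1, 2 or 3 and 5, 5 and 6 without oil replicate 1, 2 or 3, and the fall 2 without CCl4 replicate 1. Tlr13, a sensor of bacterial ribosomal RNA, was at 9.398, 5.59 and 9.83 FPKM under CCl4 and 0.275, 0.7104 and 0.849 FPKM under oil (2.51 ± 0.30, adjusted p = 0.000539), and Tlr7, a sensor of single-stranded RNA, at 6.21, 3.66 and 6.07 FPKM under CCl4 and 0.596, 0.974 and 0.665 FPKM under oil (1.83 ± 0.27, adjusted p = 0.0014). Cd14, which hands lipopolysaccharide to TLR4, was at 14.98, 21.1 and 15.1 FPKM under CCl4 and 1.84, 3.45 and 2.92 FPKM under oil (2.28 ± 0.26, adjusted p = 0.000451). The member that fell was Tlr5, the flagellin receptor, at 0.494, 0.317 and 0.449 FPKM under CCl4 and 2.73, 1.52 and 2.01 FPKM under oil (-1.10 ± 0.21, adjusted p = 0.00557), the groups far apart. Lysosome and phagosome genes rose in 17 of 41 (median 0.52), a count of 11, 14 and 17 without CCl4 replicate 1, 2 or 3 and 11, 10 and 11 without oil replicate 1, 2 or 3. Lyz2, lysozyme of macrophages and granulocytes, was at 496, 535 and 829 FPKM under CCl4 and 79.1, 115 and 94.6 FPKM under oil (2.65 ± 0.33, adjusted p = 0.000627). Ctsk, a collagen-degrading cathepsin, was at 3.49, 6.14 and 4.87 FPKM under CCl4 and 0.174, 0.101 and 0.248 FPKM under oil (2.29 ± 0.27, adjusted p = 0.000548).

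Cytokine receptor and JAK-STAT genes rose in 10 of 40 and fell in 1 (median 0.32), the rises being 9, 11 and 9 without CCl4 replicate 1, 2 or 3 and 7, 7 and 6 without oil replicate 1, 2 or 3. Il10rb, the shared chain of interleukin-10 family receptors, was even in both groups, at 5.61, 5.05 and 5.25 FPKM under CCl4 and 1.62, 1.69 and 1.28 FPKM under oil (1.32 ± 0.20, adjusted p = 0.0018). Il1rn, the interleukin-1 receptor antagonist, was at 1.92, 4.88 and 5.87 FPKM under CCl4 and 0.427, 0.428 and 0.305 FPKM under oil (1.82 ± 0.31, adjusted p = 0.0035). Il1rap, the accessory chain of that receptor, was the gene that fell, at 5.45, 6.18 and 10.1 FPKM under CCl4 and 16.6, 18.8 and 23.98 FPKM under oil (-1.36 ± 0.26, adjusted p = 0.00631, and 0.0641 with equal sums). Gm20319, an antisense gene that overlaps Il1rap, averaged 15.4 FPKM under CCl4 and 34.0 FPKM under oil, so reads of the pair may be mixed. Genes of apoptosis and necroptosis rose in 6 of 23 and fell in 2 (median 0.17), and of the 18 present in both groups 1 rose and 2 fell. The rises were 4 to 6 with any 1 of the 6 libraries left out, and the falls 1, 1 and 0 without CCl4 replicate 1, 2 or 3 and 0, 0 and 0 without oil replicate 1, 2 or 3, against 2 at an unadjusted p under 0.05, 1 by edgeR and 1 by DESeq2 with all libraries. Those that fell were Casp9, the initiator caspase of the apoptosome (-0.81, adjusted p = 0.0222), and Bid (-0.64, adjusted p = 0.0458), which carries the death receptor signal to mitochondria. Mlkl, which opens the membrane in necroptosis, was at 10.5, 5.19 and 7.71 FPKM under CCl4 and 2.48, 2.22 and 2.15 FPKM under oil (1.38 ± 0.24, adjusted p = 0.00398), and Ripk3, its activating kinase, at 4.898, 2.33 and 2.06 FPKM under CCl4 and 0.745, 0.734 and 0.776 FPKM under oil (1.16 ± 0.24, adjusted p = 0.00896). Apaf1, the apoptosome scaffold, was at 2.44, 1.64 and 2.59 FPKM under CCl4 and 0.531, 0.6097 and 0.653 FPKM under oil (1.00 ± 0.21, adjusted p = 0.00883).

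MHC class I and antigen processing genes rose in 1 of 21 (median 0.49), against 9.31% over all members. That gene was H2-M3, which presents formylated peptides, at 9.03, 5.87 and 5.39 FPKM under CCl4 and 2.28, 2.23 and 2.28 FPKM under oil (1.22 ± 0.21, adjusted p = 0.00325). The list median against the oil mean was 1.26 in CCl4 replicate 1, 0.33 in replicate 2 and -0.08 in replicate 3, so the CCl4 livers differed from each other by more than the size of the list median. With equal sums 6 members were called. Of 10 TNF superfamily members 2 rose, with 0, 1 and 3 without CCl4 replicate 1, 2 or 3 and 0, 0 and 0 without oil replicate 1, 2 or 3, against 4 at an unadjusted p under 0.05, 4 by edgeR and 4 by DESeq2 with all libraries. With all libraries the 2 were the receptors Tnfrsf1b, also known as TNFR2 (1.01, adjusted p = 0.0367), and Tnfrsf12a, the receptor of TWEAK (1.48, adjusted p = 0.0419). Leaving out any CCl4 or oil library other than CCl4 replicate 3 ended both calls (adjusted p = 0.0743 to 0.147). The 1 called without CCl4 replicate 2 was thus another member.

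Of 34 complement members 4 rose and 5 fell, beside 9.31% higher and 6.21% lower over all members. Their median was -0.36, which turned to 0.26 with equal sums and 0.25 after quantile normalization. The rises were 3, 4 and 5 without CCl4 replicate 1, 2 or 3 and 2, 3 and 2 without oil replicate 1, 2 or 3, and the falls 4, 4 and 3 without CCl4 replicate 1, 2 or 3 and 3, 2 and 2 without oil replicate 1, 2 or 3. The other members that fell were C8b, C8g, Masp2 and Cd59a (-1.28, -1.53, -1.02 and -1.23), of which C8b and C8g encode chains of the membrane attack complex, and C8g was named after its value was seen. The anaphylatoxin receptor C3ar1 was at 9.27, 10.3 and 12.7 FPKM under CCl4 and 0.839, 1.21 and 1.48 FPKM under oil (2.43 ± 0.23, adjusted p = 0.000156), and C5ar1 at 6.83, 8.95 and 5.94 FPKM under CCl4 and 0.793, 0.476 and 0.5101 FPKM under oil (2.36 ± 0.31, adjusted p = 0.000818). Cfd, the protease of the alternative pathway that fat cells make in quantity, had 0, 0 and 1 recovered reads in the CCl4 livers and 61, 30 and 33 reads in the oil livers. Its level was 0, 0 and 0.0583 FPKM under CCl4 and 4.35, 2.49 and 3.35 FPKM under oil (adjusted p = 0.00017). The 5 fat cell markers summed to 3.95, 5.94 and 8.203 FPKM under CCl4 and 2.66, 3.12 and 2.46 FPKM under oil, with all CCl4 livers above the oil livers. Most of that sum was Fabp4, a fatty acid binder, called higher at 3.03, 5.15 and 7.92 FPKM under CCl4 and 1.35, 1.84 and 1.75 FPKM under oil, whereas Cidec averaged 0.657 FPKM under CCl4 and 1.10 FPKM under oil.

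Of 32 coagulation and fibrinolysis members 7 rose and 1 fell, with a median of -0.41 that turned to 0.20 with equal sums and 0.20 after quantile normalization. The rises were 5 to 7 with any 1 of the 6 libraries left out, and 1 of them was among members present in both groups. Plau, urokinase, was at 3.51, 9.83 and 5.77 FPKM under CCl4 and 1.11, 0.743 and 0.673 FPKM under oil (1.92 ± 0.39, adjusted p = 0.00853). Its receptor Plaur was at 3.11, 2.92 and 2.01 FPKM under CCl4 and 0.377, 0.438 and 0.0716 FPKM under oil (1.51 ± 0.24, adjusted p = 0.00259). Plat, tissue plasminogen activator, was at 1.61, 2.46 and 2.61 FPKM under CCl4 and 0.105, 0.0735 and 0.04501 FPKM under oil (1.57 ± 0.26, adjusted p = 0.00268), and Thbd, thrombomodulin of endothelium and macrophages, at 9.96, 9.404 and 7.17 FPKM under CCl4 and 1.45, 1.54 and 1.71 FPKM under oil (1.93 ± 0.26, adjusted p = 0.00109). The 1 fall, a smaller share than over all members, was Klkb1, prekallikrein (-1.29, adjusted p = 0.0289), which was lost on leaving out any 1 library other than CCl4 replicate 3 (adjusted p = 0.0623 to 0.110). These 4 activators and receptors were above oil in every CCl4 liver.

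The 27 abundant plasma carriers and inhibitors held 21.6%, 21.6% and 24.4% of summed member FPKM in the CCl4 livers, against 17.1%, 18.2% and 19.4% in the oil livers (p = 0.1 by exact two-sided permutation, the lowest p this design allows). The list median of the deposited levels was -0.37, or 0.25 with equal sums and 0.47 after quantile normalization. On the deposited levels limma called 0 higher and 3 lower, but 7 higher and 0 lower both with equal sums and after quantile normalization. The 3 were Serpina1d (-1.34), Serpinf1 (-1.30) and Mug1 (-1.16), all protease inhibitors or their relatives. That count was 1, 0 and 0 without CCl4 replicate 1, 2 or 3 and 0, 0 and 0 without oil replicate 1, 2 or 3, against 8 at an unadjusted p under 0.05, 3 by edgeR and 6 by DESeq2 with all libraries. Alb, albumin, was at 29803, 21970.3 and 43236 FPKM under CCl4 and 34528, 38755 and 51786 FPKM under oil (-0.43 ± 0.41, adjusted p = 0.56). Hpx, the haem carrier haemopexin, was at 8738, 6581 and 3018 FPKM under CCl4 and 2130.4, 3906 and 3687 FPKM under oil (0.83 ± 0.45, adjusted p = 0.269, and 0.0159 with equal sums), with the groups overlapping. Serpina3k, a protease inhibitor with close copies that overlaps Serpina3m, was at 2158, 4284 and 3028 FPKM under CCl4 and 5581, 7719 and 9179 FPKM under oil (-1.27 ± 0.39, adjusted p = 0.0522). It did not pass, although all CCl4 values lay below the oil values, and it passed under 9 of the alternatives, among them the replicate block (adjusted p = 0.0277) and DESeq2 (adjusted p = 0.0065).

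Apolipoprotein and lipoprotein genes rose in 3 of 32 and fell in 4, with a median of -0.53 that was 0.02 with equal sums. The rises were 2 to 3 with any 1 of the 6 libraries left out, and the falls 3, 3 and 3 without CCl4 replicate 1, 2 or 3 and 2, 2 and 2 without oil replicate 1, 2 or 3. Apoa4, of chylomicrons and fasting liver, was at 139.9, 106 and 124 FPKM under CCl4 and 24.8, 17.98 and 13.2 FPKM under oil (2.69 ± 0.34, adjusted p = 0.000731). Lpl, lipoprotein lipase, which adult hepatocytes normally make little of, was at 32.5, 26 and 44.4 FPKM under CCl4 and 3.04, 4.55 and 6.19 FPKM under oil (2.66 ± 0.29, adjusted p = 0.000353). Lipc, the lipase that hepatocytes do make, was at 26.1, 37.8 and 29.2 FPKM under CCl4 and 89.1, 89.4 and 81.9 FPKM under oil (-1.47 ± 0.29, adjusted p = 0.00727). The lipases moved in opposite directions in every CCl4 liver. Metal and selenium handling genes rose in 4 of 38 and fell in 4, with a median of -0.22 and 0.35 with equal sums. The rises were 4 with any 1 of the 6 libraries left out, and the falls 7, 2 and 2 without CCl4 replicate 1, 2 or 3 and 1, 1 and 1 without oil replicate 1, 2 or 3. Hmox1, haem oxygenase, was at 119, 58.3 and 35.8 FPKM under CCl4 and 15.3, 15.2 and 9.95 FPKM under oil (2.16 ± 0.41, adjusted p = 0.0056). Over all members 9.31% were higher and 6.21% lower, so neither list is set apart by these counts. Gpx3, an extracellular glutathione peroxidase, was at 28.4, 29.4 and 13.6 FPKM under CCl4 and 3.55, 4.05 and 4.08 FPKM under oil (2.27 ± 0.42, adjusted p = 0.00537).

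Nuclear receptors and hepatocyte transcription factors fell in 9 of 50 members (median -0.57), but the count was 6, 5 and 4 without CCl4 replicate 1, 2 or 3 and 1, 3 and 3 without oil replicate 1, 2 or 3, and 2 with equal sums. The list median against the oil mean was -0.26, -0.47 and -0.97 in CCl4 replicates 1, 2 and 3. Tbx3, a factor of pericentral hepatocytes, was at 2.56, 0.926 and 0.438 FPKM under CCl4 and 5.97, 5.42 and 7.79 FPKM under oil (-1.77 ± 0.30, adjusted p = 0.00317). Cebpa, a factor of adult hepatocyte identity, was at 119, 85.3 and 31.6 FPKM under CCl4 and 305, 273 and 223 FPKM under oil (-1.93 ± 0.44, adjusted p = 0.0141), a call that ended without oil replicate 1 or 2 (adjusted p = 0.0578 and 0.0538). Both were lowest in replicate 3 and still below oil in replicate 1. In the growth hormone, insulin and IGF axis 2 of 22 fell, a share near the 6.21% over all members. Ghr, the growth hormone receptor, was at 28.1, 33.9 and 37.5 FPKM under CCl4 and 75.8, 87.5 and 116 FPKM under oil (-1.45 ± 0.25, adjusted p = 0.00386). Igfals, which carries IGF in plasma, was at 31.9, 18.02 and 17.4 FPKM under CCl4 and 63.99, 65.5 and 63.2 FPKM under oil (-1.53 ± 0.28, adjusted p = 0.00438, and 0.0649 with equal sums).

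Urea cycle and ammonia genes fell in 8 of 21 (median -1.10). The falls were 9, 6 and 7 without CCl4 replicate 1, 2 or 3 and 4, 4 and 5 without oil replicate 1, 2 or 3, and 4 with equal sums. Slc1a2, the glutamate transporter of pericentral hepatocytes (ENSMUSG00000005089, chromosome 2, 102658659 to 102790784, mm10), was at 0.0377, 0.0519 and 0.0614 FPKM in the CCl4 livers and 7.14, 10.5 and 14.4 FPKM in the oil livers. That is 9, 13 and 15 recovered reads under CCl4 against 1427, 1806 and 2024 under oil (-3.43 ± 0.23, adjusted p = 3.33e-05), so the 3 CCl4 livers shared a near loss. Car5a, the mitochondrial carbonic anhydrase that feeds the urea cycle, was at 22.4, 13.5 and 9.68 FPKM under CCl4 and 58.4, 56.98 and 48.3 FPKM under oil (-1.85 ± 0.31, adjusted p = 0.0033).

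Amino acid breakdown fell in 22 of 41 members. On the deposited scaling every member had a difference below 0, from -1.84 to -0.44 (median -1.07, or -0.47 with equal sums). The count was 17, 8 and 9 without CCl4 replicate 1, 2 or 3 and 7, 6 and 5 without oil replicate 1, 2 or 3, and 5 with equal sums. Dmgdh, of choline and glycine breakdown, was at 86.2, 58.4 and 39.7 FPKM under CCl4 and 213, 191 and 192 FPKM under oil (-1.75 ± 0.32, adjusted p = 0.00506). In methionine, folate and serine metabolism 3 of 22 rose and 3 fell, and of the 19 present in both groups 0 rose and 3 fell. The falls were 6, 0 and 0 without CCl4 replicate 1, 2 or 3 and 0, 0 and 0 without oil replicate 1, 2 or 3, against 10 at an unadjusted p under 0.05, 2 by edgeR and 4 by DESeq2 with all libraries. They were Gnmt (-2.24) and Ahcy (-1.88), which use and recycle S-adenosylmethionine, and the folate enzyme Mthfd1 (-0.91), named after its value was seen. The serine-making enzyme Psat1 was at 2.24, 3.4 and 4.197 FPKM under CCl4 and 0.263, 0.234 and 0.3302 FPKM under oil (1.72 ± 0.21, adjusted p = 0.000656), and Mthfd2, a mitochondrial folate enzyme of growing cells, at 1.99, 2.99 and 1.85 FPKM under CCl4 and 0.433, 0.548 and 0.483 FPKM under oil (1.12 ± 0.20, adjusted p = 0.00402). Both were above oil in every CCl4 liver and below 1 FPKM in every oil liver.

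Phase II conjugation genes fell in 13 of 42 (median -1.02), with 10, 8 and 9 without CCl4 replicate 1, 2 or 3 and 10, 5 and 3 without oil replicate 1, 2 or 3, and 3 with equal sums. Ugt3a1 was at 5.297, 7.87 and 6.67 FPKM under CCl4 and 31.8, 36.3 and 60.7 FPKM under oil (-2.49 ± 0.31, adjusted p = 0.000643). Sult2a8, a bile acid sulfotransferase, was at 12.7, 57.8 and 42.96 FPKM under CCl4 and 266, 313 and 523 FPKM under oil (-3.43 ± 0.65, adjusted p = 0.00582). Esterases, flavin oxidases and hydrolases fell in 9 of 22 (median -1.16), a count of 7 to 10 with any 1 of the 6 libraries left out. Ces3b, a carboxylesterase of lipid droplets, was at 19.2, 48.1 and 35.6 FPKM under CCl4 and 213, 229.5 and 220.3 FPKM under oil (-2.75 ± 0.38, adjusted p = 0.00118), and the aldehyde oxidase Aox3 at 22.8, 48.6 and 27.1 FPKM under CCl4 and 142, 154 and 149.7 FPKM under oil (-2.22 ± 0.31, adjusted p = 0.00115). Oil livers were tight for both, and CCl4 replicate 2 was the highest of the CCl4 livers. Carboxylesterase, UGT and sulfotransferase genes lie in clusters of similar copies, so single values are uncertain.

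In alcohol, aldehyde and retinol metabolism 10 of 35 fell and 5 rose (median -0.82). The falls were 6, 3 and 7 without CCl4 replicate 1, 2 or 3 and 4, 2 and 2 without oil replicate 1, 2 or 3, and 2 with equal sums. The rises were 5, 4 and 4 without CCl4 replicate 1, 2 or 3 and 3, 4 and 4 without oil replicate 1, 2 or 3. Rdh16, a retinol dehydrogenase, was at 5.07, 1.39 and 4.24 FPKM under CCl4 and 19.5, 18.6 and 19.9 FPKM under oil (-2.26 ± 0.33, adjusted p = 0.00151). Akr1b8, an aldo-keto reductase, was higher, at 4.04, 6.54 and 7.25 FPKM under CCl4 and 1.797, 2.04 and 2.37 FPKM under oil (1.15 ± 0.22, adjusted p = 0.00655). Solute carriers fell in 16 of 38 and rose in 2, with 16 falls and 1 rise among the 36 present in both groups. The median over the 38 was -0.56, or 0.02 with equal sums. With all libraries the 2 that rose were the amino acid carriers Slc1a4 and Slc1a5 (1.02 and 1.05). The rises in the list were 0, 2 and 2 without CCl4 replicate 1, 2 or 3 and 1, 0 and 0 without oil replicate 1, 2 or 3, against 4 at an unadjusted p under 0.05, 3 by edgeR and 3 by DESeq2 with all libraries. Slc1a5 lost its call without CCl4 replicate 2 (adjusted p = 0.0610) and Slc1a4 without CCl4 replicate 3 (0.0583). The counts of 2 there thus include another gene. The falls were 15, 11 and 13 without CCl4 replicate 1, 2 or 3 and 8, 9 and 7 without oil replicate 1, 2 or 3, and 7 with equal sums. Slc27a5, which conjugates bile acids to coenzyme A, was at 206, 169 and 115 FPKM under CCl4 and 479, 556 and 577 FPKM under oil (-1.75 ± 0.36, adjusted p = 0.00947). Replicate 3 was the lowest CCl4 liver and none reached the oil range.

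ABC transporters fell in 8 of 24 and rose in 3 (median -0.67), with 8 falls and 1 rise among the 21 present in both groups. The falls were 7, 6 and 5 without CCl4 replicate 1, 2 or 3 and 5, 5 and 5 without oil replicate 1, 2 or 3, and with equal sums limma called 0 lower, against, with the deposited scaling, 11 at an unadjusted p under 0.05, and 7 by edgeR and 9 by DESeq2 on recovered reads. Abcb11, the bile salt export pump, was at 72.5, 66.6 and 89.4 FPKM under CCl4 and 190.0, 184 and 198 FPKM under oil (-1.32 ± 0.27, adjusted p = 0.00855), a call that ended with equal sums (adjusted p = 0.119) or quantile normalization (adjusted p = 0.116). The rises were 2, 3 and 2 without CCl4 replicate 1, 2 or 3 and 1, 2 and 1 without oil replicate 1, 2 or 3. Among them Abcc4, an efflux pump of the blood side, was at 2.84, 2.12 and 2.54 FPKM under CCl4 and 0.504, 0.802 and 0.718 FPKM under oil (1.06 ± 0.18, adjusted p = 0.00319).

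Peroxisomal genes fell in 14 of 38. On the deposited scaling all 38 differences were below 0, from -2.92 to -0.26 (median -1.01, or -0.46 with equal sums). The count was 15, 10 and 11 without CCl4 replicate 1, 2 or 3 and 8, 6 and 5 without oil replicate 1, 2 or 3, and 5 with equal sums. Phyh, which starts the breakdown of phytanic acid, was at 355, 325 and 214 FPKM under CCl4 and 891, 949 and 1226 FPKM under oil (-1.79 ± 0.33, adjusted p = 0.00496). Replicate 3 was the lowest CCl4 liver. Of 25 genes of the TCA cycle and pyruvate dehydrogenase 1 fell (median -0.60, and 0.00 with equal sums), with 12 lower at an unadjusted p under 0.05. The count was 9 with these 6 libraries alone in the fit, 8 without labelled Sting knockout replicate 2, 5 with the replicate block and 4 by DESeq2, but 0 with equal sums and after quantile normalization. The gene that fell was Pdha1, a subunit of pyruvate dehydrogenase (-0.93, adjusted p = 0.0334), a call that held without CCl4 replicate 1 and was lost on leaving out any other of the 6 libraries (adjusted p = 0.0672 to 0.124). Of 31 proteasome genes 1 fell, Psmd11 (-0.72, adjusted p = 0.0469), which was lost on leaving out any 1 of the 6 libraries (adjusted p = 0.0504 to 0.137), with a list median of -0.35 that turned to 0.25 with equal sums.

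Of 46 members of glucose, glycogen and pentose phosphate metabolism 4 rose and 7 fell, beside 9.31% higher and 6.21% lower over all members. The list median was -0.32, or 0.23 with equal sums. The rises were 3, 2 and 5 without CCl4 replicate 1, 2 or 3 and 2, 2 and 2 without oil replicate 1, 2 or 3, and the falls 8, 4 and 3 without CCl4 replicate 1, 2 or 3 and 3, 3 and 2 without oil replicate 1, 2 or 3. Pkm, the pyruvate kinase of non-hepatocyte tissues, was at 30.6, 41.6 and 20.05 FPKM under CCl4 and 5.32, 5.53 and 4.36 FPKM under oil (2.33 ± 0.31, adjusted p = 0.000877). Pklr, the hepatocyte pyruvate kinase, was at 34.5, 30.1 and 20.1 FPKM under CCl4 and 122, 94.4 and 75.3 FPKM under oil (-1.75 ± 0.31, adjusted p = 0.00414). In deposited FPKM, which is per length, Pkm exceeded Pklr in CCl4 replicate 2, was level with it in replicate 3 and was lower in replicate 1 and in all oil livers. Hk3, a hexokinase of myeloid cells, was at 14.1, 5.37 and 4.73 FPKM under CCl4 and 1.36, 2.39 and 1.399 FPKM under oil (1.62 ± 0.35, adjusted p = 0.011). Beside 6.21% over all members, cholesterol synthesis genes fell in 2 of 23 (median -0.57, or 0.03 with equal sums). One of them, the sterol reductase Tm7sf2, was at 10.1, 14.7 and 7.202 FPKM under CCl4 and 37.3, 40.01 and 33.4 FPKM under oil (-1.74 ± 0.33, adjusted p = 0.00536).

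Of 30 DNA replication and repair members 15 rose and 1 fell (median 1.02), and 9 of the 23 present in both groups rose. The rises were 12 to 16 with any 1 of the 6 libraries left out. Rrm2, the small subunit of ribonucleotide reductase, was at 16.5, 13.4 and 16.7 FPKM in the CCl4 livers and 1.47, 1.54 and 1.82 FPKM in the oil livers (2.66 ± 0.22, adjusted p = 7.65e-05). Of the replicative helicase, Mcm6 was at 9.94, 12.9 and 22.2 FPKM under CCl4 and 1.37, 1.57 and 1.42 FPKM under oil (2.63 ± 0.28, adjusted p = 0.000321), and Mcm5 at 5.87, 9.03 and 7.92 FPKM under CCl4 and 0.691, 0.727 and 0.868 FPKM under oil (2.27 ± 0.20, adjusted p = 0.000125). Mcm10, which loads polymerase at the fork, was the member that fell, at 1.302, 2.15 and 1.59 FPKM under CCl4 and 6.96, 6.98 and 5.88 FPKM under oil (-1.51 ± 0.21, adjusted p = 0.0011). Its oil level was several-fold that of Mcm5 and Mcm6 per length, and the groups were far apart.

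Mitosis genes rose in 38 of 40 members, with a median of 2.27 and a count of 38 with any 1 of the 6 libraries left out. Of these 40, 3 reached 1 FPKM in both groups and 1 of the 3 rose, so nearly all reached the minimum through the CCl4 livers and had to lie higher there. Cdc20, which activates the anaphase-promoting complex, was at 44.6, 18.8 and 32.6 FPKM under CCl4 and 0.387, 0.818 and 0.702 FPKM under oil (4.26 ± 0.34, adjusted p = 6.92e-05). Mki67, the proliferation antigen Ki-67, was at 10.9, 8.08 and 17.1 FPKM under CCl4 and 0.0718, 0.425 and 0.289 FPKM under oil (3.32 ± 0.26, adjusted p = 6.18e-05). Top2a, the topoisomerase that untangles chromosomes, was at 7.504, 7.07 and 14.05 FPKM under CCl4 and 0.168, 0.271 and 0.322 FPKM under oil (3.01 ± 0.24, adjusted p = 7.48e-05). In each the lowest CCl4 liver was replicate 2. Cdc20 overlaps Elovl1 on the other strand, which averaged 18.5 FPKM under CCl4 and 16.2 FPKM under oil. The 2 members not called, named after their values were seen, were Spc24 (0.75, adjusted p = 0.179) and Pttg1 (-0.49, adjusted p = 0.399). Of 26 genes of G1 and E2F 8 rose (median 0.40), a count of 6 to 8 with any 1 of the 6 libraries left out. Cdkn2a, which encodes the inhibitor p16 and ARF, had 60, 46 and 36 recovered reads under CCl4 (2.82, 2.06 and 1.65 FPKM) and was listed at 0 in each oil liver (adjusted p = 0.00115).

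Promoters of these genes are shown because the mitosis and replication members moved together and late cell cycle promoters are known to carry a CCAAT box and a cell cycle homology element, TTTGAA, while E2F sites read TTTGGCGC. The 250 bases before the start of 6 members follow, from RefSeq on GRCm38.p6, 5′ to 3′ on the gene's strand. Capitals mark CCAAT and TTTGAA in the mitosis genes, and CCAAT and TTTGGCGC in the Mcm genes, on either strand, so that the reverse reading of each is capital too.
Ube2c, chr2:164769679-164769928, + strand: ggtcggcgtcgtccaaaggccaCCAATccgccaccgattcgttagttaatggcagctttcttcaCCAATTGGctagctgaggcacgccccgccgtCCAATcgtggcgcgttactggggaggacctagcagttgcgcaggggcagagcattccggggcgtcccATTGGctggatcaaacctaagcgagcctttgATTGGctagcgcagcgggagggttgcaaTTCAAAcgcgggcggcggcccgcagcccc
Mki67, chr7:135716380-135716629, - strand: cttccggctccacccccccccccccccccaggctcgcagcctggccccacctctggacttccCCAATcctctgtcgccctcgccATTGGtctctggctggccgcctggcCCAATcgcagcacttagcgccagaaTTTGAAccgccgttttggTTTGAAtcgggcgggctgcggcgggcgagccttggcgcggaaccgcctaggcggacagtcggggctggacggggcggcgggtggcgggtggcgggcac
Cdc20, chr4:118437344-118437593, - strand: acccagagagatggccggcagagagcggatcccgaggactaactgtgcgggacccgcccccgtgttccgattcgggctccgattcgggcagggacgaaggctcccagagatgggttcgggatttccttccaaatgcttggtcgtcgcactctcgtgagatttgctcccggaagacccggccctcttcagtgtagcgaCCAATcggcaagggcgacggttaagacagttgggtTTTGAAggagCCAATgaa
Top2a, chr11:99024190-99024439, - strand: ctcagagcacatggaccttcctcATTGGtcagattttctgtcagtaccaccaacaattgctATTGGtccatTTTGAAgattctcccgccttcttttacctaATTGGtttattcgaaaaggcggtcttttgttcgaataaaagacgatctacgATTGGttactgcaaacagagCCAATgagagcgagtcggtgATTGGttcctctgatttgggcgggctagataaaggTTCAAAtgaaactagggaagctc
Mcm5, chr8:75109259-75109508, + strand: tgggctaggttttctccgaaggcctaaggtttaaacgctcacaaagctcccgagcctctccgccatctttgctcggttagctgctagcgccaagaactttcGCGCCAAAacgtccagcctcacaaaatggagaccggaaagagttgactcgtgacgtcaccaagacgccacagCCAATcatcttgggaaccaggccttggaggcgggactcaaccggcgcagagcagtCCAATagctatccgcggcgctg
Mcm6, chr1:128359706-128359955, - strand: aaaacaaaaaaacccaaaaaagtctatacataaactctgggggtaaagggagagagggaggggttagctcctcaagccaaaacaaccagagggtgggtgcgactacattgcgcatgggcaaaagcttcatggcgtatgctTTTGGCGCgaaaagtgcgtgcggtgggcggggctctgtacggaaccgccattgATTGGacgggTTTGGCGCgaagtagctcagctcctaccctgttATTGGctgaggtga
In Ube2c a forward and a reverse CCAAT overlap by 2 bases. Ube2c and Top2a hold 6 matches to CCAAT each, Mki67 3 and Cdc20 2, and Mcm6 holds 2 to TTTGGCGC.

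Of 33 mitosis members with a promoter window in the RefSeq table, 250 bases before to 50 after the start, 78.8% held CCAAT and 75.8% held TTTGAA on either strand. Among the 27025 genes with a window the shares were 37.9% and 18.1%. In the mitosis promoters CCAAT was most frequent from 1 to 100 bases before the start, with 54.5% of promoters in the nearer 50 bases and 51.5% in the next, against 9.44% and 12.95% of all promoters. TTTGAA was most frequent in the 50 bases from the start onward, in 48.5% of the mitosis promoters and 2.18% of all. The 8-base TTTGGCGC was in 0.54% of all promoters and in 21.7% of the 23 promoters of the replication list. The table holds 32851 windows, the first for each gene was used, and 8248 members had one. These shares are descriptions with no test.

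**Figure D5:**
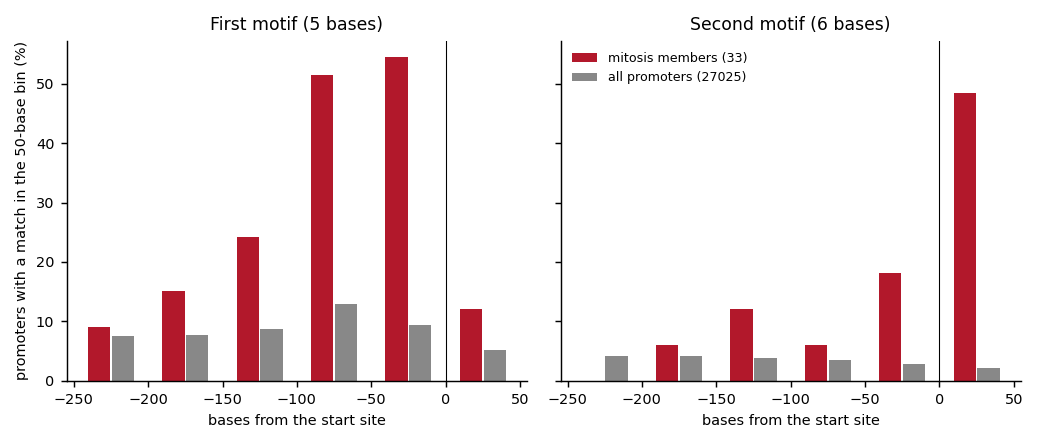
Share of promoters with a match, in 50-base bins of distance from the start site (negative before it), for the 5-base CCAAT motif (left) and the 6-base TTTGAA motif (right), either strand. Red bars are the 33 mitosis members and grey bars all 27025 genes with a window; the red bars peak at 54.5% just before the start (left) and 48.5% just after it (right).

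CCAAT was in 39.4% of the 749 promoters of members called higher, in 42.0% of the 502 of members called lower and in 38.9% of the 7004 not called. All motifs were searched on both strands, and none holds another whole. GAGGAAGT, a motif of the ETS factor PU.1 of myeloid cells, was in 7.88% of the higher members, 2.79% of the lower, 2.70% of those not called and 3.28% of all. It was in 3 of the 16 windows of the Fc receptor and lectin list (18.8%). Other lists had similar shares, with 2 of 11 windows for integrins (18.2%), 1 of 7 for male-biased liver genes (14.3%) and 4 of 32 for lysosome and phagosome genes (12.5%). CAAAGTCCA, a motif of the hepatocyte factor HNF4A, was in 0.53% of the higher members (4 windows), 1.59% of the lower (8 windows), 0.47% of those not called and 0.48% of all. GGGCGG, bound by SP1, was in 58.5%, 50.2% and 66.3% of the 3 classes and 35.9% of all.

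YAP and TEAD targets rose in 4 of 20 (median 0.19) and in 2 of the 17 present in both groups, the count of 4 being 3 to 4 with any 1 of the 6 libraries left out. Over all members 9.31% were higher and 6.21% lower. Ctgf, a matricellular growth factor, was at 11.1, 9.64 and 4.38 FPKM under CCl4 and 1.95, 0.508 and 0.851 FPKM under oil (2.13 ± 0.34, adjusted p = 0.00228), and Myof, a membrane repair protein, at 3.77, 2.97 and 4.86 FPKM under CCl4 and 0.375, 0.358 and 0.379 FPKM under oil (1.81 ± 0.25, adjusted p = 0.00119). In the Wnt pathway 3 of 23 rose and 2 fell, with 1 rise and 2 falls among the 19 present in both groups. The median over the 23 was -0.10, or 0.33 with equal sums. The rises were 2 to 4 with any 1 of the 6 libraries left out, and the falls 3, 2 and 0 without CCl4 replicate 1, 2 or 3 and 0, 0 and 1 without oil replicate 1, 2 or 3, against 6 at an unadjusted p under 0.05, 2 by edgeR and 2 by DESeq2 with all libraries. With all libraries the falls were the receptor Fzd8 (-1.37, adjusted p = 0.0153) and Rnf43, which removes Wnt receptors (-0.92, adjusted p = 0.0248). Rnf43 kept its call without CCl4 replicate 1 and lost it on leaving out any other of the 6 libraries (adjusted p = 0.0756 to 0.0867). The 2 falls without CCl4 replicate 2 thus include another gene. With equal sums neither was called (adjusted p = 0.131 for Fzd8 and 0.339 for Rnf43). Dkk3, a secreted Dickkopf protein, was at 6.14, 4.87 and 5.06 FPKM under CCl4 and 0.704, 1.001 and 0.836 FPKM under oil (1.78 ± 0.18, adjusted p = 0.000189), and Frzb, a secreted Wnt binder, at 3.16, 4.73 and 3.37 FPKM under CCl4 and 1.06, 0.283 and 0.984 FPKM under oil (1.44 ± 0.28, adjusted p = 0.00722). Growth factor and receptor tyrosine kinase genes rose in 4 of 38 and fell in 2, shares near the 9.31% and 6.21% over all members. The rises were 2, 3 and 4 without CCl4 replicate 1, 2 or 3 and 1, 1 and 0 without oil replicate 1, 2 or 3, against 10 at an unadjusted p under 0.05, 6 by edgeR and 9 by DESeq2 with all libraries. The falls were Fgf1 (-1.08, adjusted p = 0.00706) and Klb, the coreceptor of endocrine FGFs (-1.02, adjusted p = 0.0213), and 1 to 3 genes fell with any 1 of the 6 libraries left out, 1 of them without CCl4 replicate 2 or oil replicate 2 or 3. Pdgfrb, the receptor of stellate cells, was at 7.32, 9.14 and 4.39 FPKM under CCl4 and 2.43, 2.12 and 1.28 FPKM under oil (1.41 ± 0.31, adjusted p = 0.0119, and 0.0585 without oil replicate 3). Of 10 Notch and Hedgehog members limma called 0, edgeR 0 and DESeq2 0, with 1 higher at an unadjusted p under 0.05.

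The 95% interval of the difference lay within 2-fold of FPKM + 1 either way at 5721 members (54.9%) and within 1.5-fold at 1304 (12.5%). In FPKM itself these intervals are wider, most of all for low genes. Smc1a, a cohesin subunit, was at 11.5, 12.2 and 11.7 FPKM under CCl4 and 11.97, 11.9 and 11.6 FPKM under oil (0.00 ± 0.18), and Ppp1cc, a phosphatase catalytic subunit, at 20.4, 17.02 and 17.9 FPKM under CCl4 and 17.6, 19.3 and 18.9 FPKM under oil (-0.02 ± 0.20). Both were among the 6 members at 10 FPKM or more whose interval lay closest to 0. The median SD of log2(FPKM + 1) was 0.30 under CCl4 and 0.19 under oil, and it was larger under CCl4 at 73.5% of members. CCl4 replicate 3 was the library furthest from the CCl4 median at 51.4% of members. The widest spreads in the oil group, at members with a mean of 5 FPKM or more, included Lcn2 (a ratio of 31.4 between its highest and lowest liver), Saa1 (23.2) and Orm2 (12.8). These acute phase genes were lowest in oil replicate 1, at 0.476, 5.94 and 6.27 FPKM.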

How the data were processed

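Per the labels' protocols, total RNA was extracted from liver with TRIzol and sequenced by Illumina RNA-seq. Reads were aligned with HISAT2 2.2.1 to mm10 and counted with featureCounts 1.5.0-p3, per the submitters' processing notes; strandedness is not stated. The authors deposited FPKM for the CCl4 model, used here, and gene counts for the thioacetamide model, of which only the total counts per library (32096879 to 68913793) were read here. From the low FPKM of each library whole reads were recovered, 100% of values falling within 0.05 of a whole number. The deposited FPKM were scaled by more than depth: the implied library sizes lay within 0.129% to 2.25% of DESeq2's size factors over the 9 libraries.

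Log2(FPKM + 1) of the 11447 genes of all biotypes averaging 1 FPKM over the 6 libraries was fitted with limma 3.58.1 (R 4.3.3, mean trend), with 3 groups of 3 libraries sharing 1 estimate of spread, and p-values of CCl4 minus oil were adjusted by the Benjamini-Hochberg method over all of them. A call is an adjusted p under 0.05. The count tests, edgeR 4.0.16 (quasi-likelihood) and DESeq2 1.42.0 on recovered reads, were alternatives, as were other pseudocounts, filters, scalings, library subsets and a replicate block. Replicate numbers come from the labels, which do not say what they mark. Same-numbered CCl4 and oil libraries deviated together, with correlations of 0.22, 0.32 and 0.52, so they were treated as pairs in that alternative. Data were simulated for this comparison with normal noise on log2(FPKM + 1), and 200 of 11447 genes were changed, fewer than were called in the data. Of 2-fold changes of FPKM + 1 22% were recovered and of 4-fold changes 71%, 0 with the wrong sign, and 6 unchanged genes were called.

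The members, gene lists and markers were chosen with earlier results of these data known. Genes named are, per list, up to 4 called members with the smallest adjusted p and up to 2 called the other way, the 15 largest rises and falls, the 15 most abundant members of each group, the 6 most level, the 8 widest spreads per group and cell type markers; a selection of these is printed, and some are not reported here. List medians stand beside the median of all members, -0.08, and lists are described without a test.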

Additional observations from a re-analysis of the deposited data

How the results depend on the processing

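Against 970 higher and 647 lower members, the counts stayed within 1.5 times, and no call changed sign, with pseudocounts of 0.1 and 5, TMM scaling, quantile normalization, 6 libraries in the fit, no trend, robust moderation, coding genes alone, and edgeR or DESeq2 on recovered reads. Their range was 858 to 1397 higher and 489 to 866 lower. A replicate block gave 2037 calls, 1083 of them higher, within 1.5 times in each direction. With no filter on level 669 were higher and 412 lower. With a minimum of 5 FPKM, where 5538 members were left, 306 were higher and 481 lower. With equal sums 1668 were higher and 166 lower. Among members at 1 FPKM in each group 517 were higher and 588 lower. Leaving out 1 of the 6 libraries gave 620 to 909 higher and 243 to 520 lower, and leaving out replicate 2 labelled Sting knockout, an alternative added after the data were seen, 1158 higher and 1085 lower. Fewer libraries or fewer genes tested enter some of these fits; otherwise the cause was not tested. Between 14353483 and 16684832 reads per library, genes with few reads and differences under 2-fold were resolved least, and a p that misses the threshold does not show equal levels.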
